A study of Homo sapiens with 8 samples.

Results

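The kinetochore, centromere and spindle checkpoint genes described here are a list of 34 human genes, of which 33 could be measured on the arrays. All probe sets annotated to exactly 1 of these genes were taken, 61 in all, and each gene was represented by its brightest. CENPP, a subunit of the constitutive centromere network, was not analysed here, because its probe set was annotated to more than 1 gene. The whole series gave values for 19775 genes, of which 12093, the 33 members among them, were bright enough to be tested. RNA came from 4 arrays of cells treated with 75 nM A939572 for 24 h and from 4 arrays of cells that received the solvent DMSO for the same time. A939572 inhibits stearoyl-CoA desaturase 1, which introduces a double bond into saturated fatty acids. The cells were ACHN, CAKI2, A498 and CAKI1, established human kidney cancer lines that the submitters describe as clear cell carcinoma lines, and each line gave 1 treated and 1 control array. No further genetic change was stated for either group, and the labels do not say whether the arrays came from separate cultures. The p-values therefore rest on the spread of the differences over the 4 lines, pooled in part with that of the other genes tested. They do not measure the SD of a single gene alone.

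The kinetochore is the protein assembly by which each chromosome grips the microtubules of the mitotic spindle. It is built on centromeric nucleosomes that contain the histone variant CENP-A, on which the constitutive centromere network sits, and this network recruits the outer KMN network (KNL1, the MIS12 complex and the NDC80 complex) that binds microtubules. Kinetochores without attachment generate the spindle checkpoint signal, in which MAD2 and BUBR1 hold back the anaphase promoting complex. In cycling cells many of these genes are transcribed mainly in the late cell cycle, while others are expressed throughout it.

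Levels are given as log2(signal + 16) after quantile normalization, and differences as A939572 minus DMSO on that log2 scale, with the SD over the 4 lines. The lines follow the order ACHN, CAKI2, A498 and CAKI1 wherever 4 values are listed. Differences were tested in limma with the cell line as a block, and adjusted p-values are by the Benjamini-Hochberg procedure over all 12093 genes, with 0.05 as the threshold.

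Most genes of the kinetochore fell with A939572. Of 33 members, 24 fell, 1 rose and 8 did not pass the threshold, and 10 of those that fell did so by at least 2-fold. Among all genes tested 15.9% fell and 14.7% rose, so that 48.0% of all calls were higher, against 58.3% with median centring, where 23 members fell and 2 rose. The median log2 difference was -0.86 over the members and -0.03 over all genes tested. The largest falls were those of SPC24, SPC25, CENPI and CENPW, and the single rise was that of MIS12. Without the cell line as a block, 2 members (SPC25 and ZWINT) were called lower and 0 higher. A smaller share of cycling cells and less transcript per cycling cell cannot be told apart on arrays of pooled cells.

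**Figure D1:**
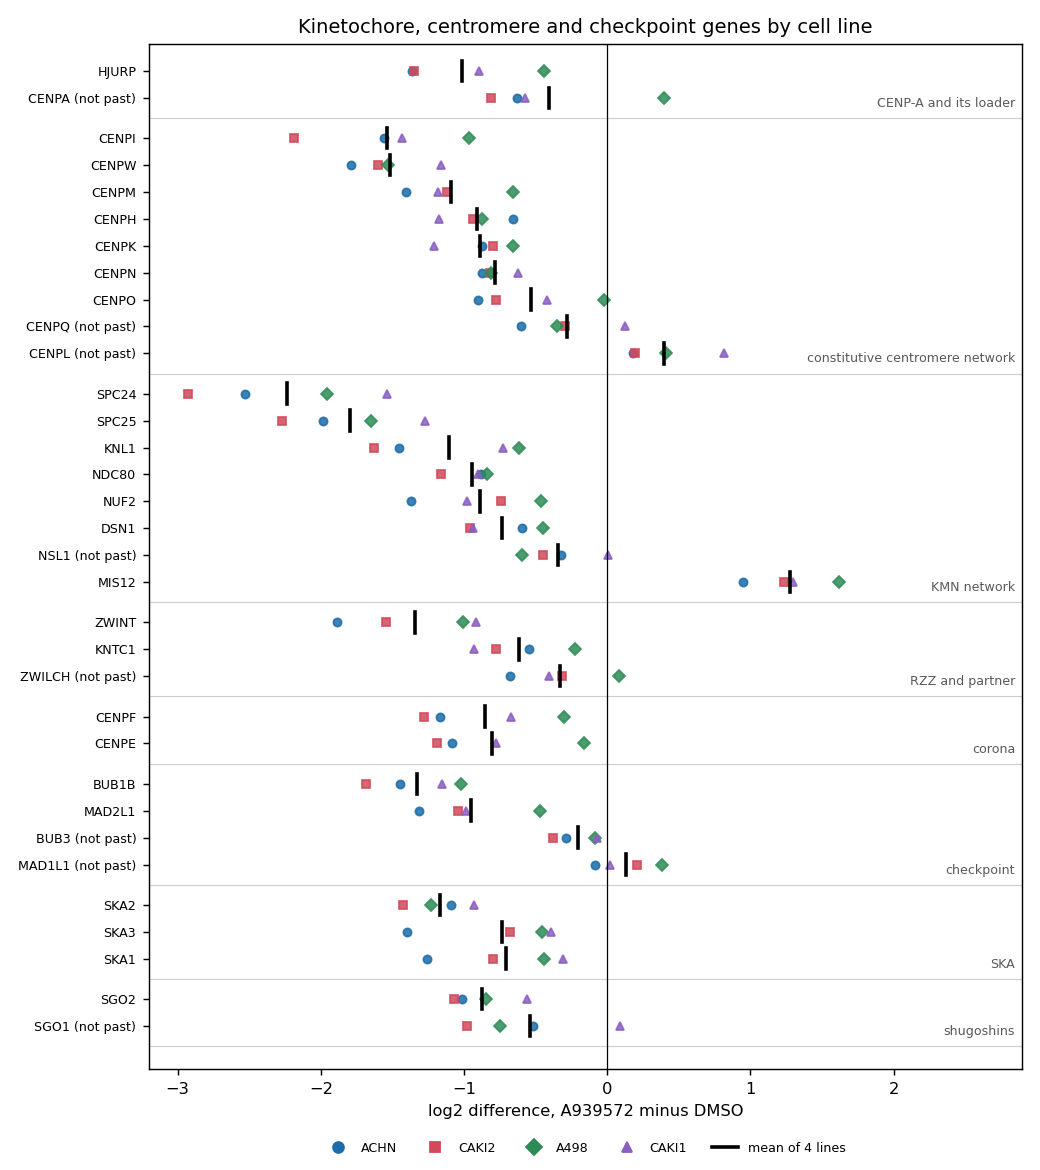
Log2 difference of each of the 33 measured genes on the horizontal axis, 1 symbol per cell line and a black bar for the mean of the 4 lines, with genes grouped by role and the word "not past" beside those that did not pass the threshold in limma. SPC24 lies farthest to the left, MIS12 is higher in all 4 lines, and the A498 symbols often lie to the right of the others.

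The treated arrays also differed from the controls in a sign of RNA quality. For ACTB, the signal of the 3′ control probe set divided by that of the 5′ one was 4.22, 3.39, 3.13 and 3.02 in treated cells, against 2.13, 2.17, 2.33 and 2.12 in DMSO. The log2 difference of this ratio was 0.64 ± 0.25, while that of the GAPDH ratio was 0.08 ± 0.05. Its part in the falls described here was not tested. Of the renal epithelial markers, 7 of 9 with a probe set were at or above the filter level of 6.41 on all 8 arrays. They were PAX8, the keratins KRT8, KRT18 and KRT19, EPCAM, CDH2 and VIM, while PAX2 and CDH16 were below that level on some. PAX8 had a difference of 0.38 ± 0.19 (limma adjusted p = 0.0294) and KRT19 one of -0.97 ± 0.84 (limma adjusted p = 0.0214). Of the leukocyte markers 0 of 3, of the fibroblast markers 0 of 6, and of the endothelial markers 1 of 4 (PECAM1, difference -0.21 ± 0.20, limma adjusted p = 0.46) were above that level on all 8 arrays. Each of the 6 fibroblast markers reached that level on at least 1 array, COL1A1 on 7 and FBLN1 on 6. The fibroblast markers COL1A1 and FBLN1 fell, with differences of -1.04 ± 0.36 and -0.86 ± 0.23. The summed signal of the 6 fibroblast markers was 422 to 1640 in treated cells and 661 to 2719 in DMSO, and its part in the results was not tested.

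Promoter sequences from RefSeq (GRCh38.p14), each reaching from 250 bases before to 50 bases after a transcription start, were matched by symbol for 28 members. CENPH, CENPL, CENPM, KNL1, KNTC1 and BUB3 had no entry. Where a gene had several starts, the first listed was used. The cell cycle homology region, a short element near the start of many genes that are transcribed late in the cell cycle, was searched as TTTGAA on both strands. It was found in 13 of 28 member promoters (46.4%), against 980 of 9884 promoters of tested genes (9.92%) and 15.4% of all 27305 genes in the table. It was present in 12 of the 20 members that fell and in 1 of the 8 others, CENPA. These 8 include MIS12, which rose, and CENPP, which was not analysed here on the arrays. The CCAAT box, searched as CCAAT on both strands, was found in 16 of 28 (57.1%), against 37.0% of tested genes. An E2F-like element, searched as TTTCGCGC, TTTGGCGC or TTCCCGCC on both strands, was found in 4 of 28 (14.3%), against 6.97% of tested genes. A match describes letters in a window and does not show that a factor binds there.

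The sequences below show 5 promoters with the cell cycle homology region and, after them, those of SPC24 and SKA2, which fell without it, and of MIS12, which rose. Each runs 5′ to 3′ in the direction of transcription to 10 bases after the start, and capitals mark TTTGAA or CCAAT on either strand. They span chr15:40160999-40161078 (plus strand) for BUB1B, chr10:56361250-56361329 (minus) for ZWINT, chr2:168890421-168890530 (minus) for SPC25, chr2:26785986-26786065 (plus) for CENPA, chr2:233854526-233854655 (minus) for HJURP, chr19:11155773-11155902 (minus) for SPC24, chr17:59155177-59155306 (minus) for SKA2 and chr17:5486244-5486383 (plus) for MIS12.
BUB1B: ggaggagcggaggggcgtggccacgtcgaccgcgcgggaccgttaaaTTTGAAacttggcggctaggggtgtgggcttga
ZWINT: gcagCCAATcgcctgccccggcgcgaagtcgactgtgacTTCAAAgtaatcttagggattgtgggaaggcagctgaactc
SPC25: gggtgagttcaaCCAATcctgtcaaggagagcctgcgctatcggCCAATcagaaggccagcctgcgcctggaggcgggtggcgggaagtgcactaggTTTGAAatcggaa
CENPA: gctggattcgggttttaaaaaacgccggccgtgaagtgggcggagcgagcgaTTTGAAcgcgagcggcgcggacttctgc
HJURP: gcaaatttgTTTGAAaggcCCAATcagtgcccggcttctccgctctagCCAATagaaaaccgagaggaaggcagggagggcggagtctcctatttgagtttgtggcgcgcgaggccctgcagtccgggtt
SPC24: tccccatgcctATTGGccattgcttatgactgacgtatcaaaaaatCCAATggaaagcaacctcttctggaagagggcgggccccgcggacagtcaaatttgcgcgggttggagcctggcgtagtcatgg
SKA2: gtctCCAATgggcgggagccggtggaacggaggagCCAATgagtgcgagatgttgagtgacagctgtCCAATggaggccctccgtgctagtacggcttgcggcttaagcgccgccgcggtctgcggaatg
MIS12: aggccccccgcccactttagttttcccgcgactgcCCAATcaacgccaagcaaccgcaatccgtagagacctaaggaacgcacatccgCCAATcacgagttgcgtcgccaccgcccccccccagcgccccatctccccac
In BUB1B and CENPA the element stood on the coding strand, starting at -23 and -18 relative to the transcription start, and in ZWINT it stood on the other strand at -31. SPC25 had one at -3, across its start, and another at -247, outside the stretch printed. In CENPN, NUF2, MAD2L1, SKA1, CENPO and CENPF, which are not printed, the element lay after the start, from 4 in CENPN to 41 in CENPF.

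Of CENP-A and its loader, 1 fell and 1 did not pass, and the difference between them was not tested. CENPA, the histone variant that marks centromeres, had levels of 9.68, 9.14, 10.42 and 8.79 in treated cells, against 10.31, 9.95, 10.02 and 9.36 in DMSO. Its difference was -0.63, -0.81 and -0.57 in ACHN, CAKI2 and CAKI1 but 0.40 in A498, and the groups overlapped. The mean was -0.40 ± 0.54 and did not pass (limma adjusted p = 0.158). Without A498 it was -0.67 (limma adjusted p = 0.0218), the lowest of its adjusted p-values over the alternatives with the block, which reached 0.427. HJURP, the chaperone that places CENP-A at centromeres, had levels of 10.17, 9.92, 11.54 and 10.29 in treated cells, against 11.54, 11.27, 11.98 and 11.18 in DMSO. It was lower in 4 of 4 lines, least in A498, and treated A498 overlapped with the controls of the other lines. HJURP fell by 1.01 ± 0.44 on the log2 scale (limma adjusted p = 0.00232).

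Of the constitutive centromere network, the inner layer that stays on centromeres through the cell cycle, 7 of 9 measured subunits fell, 0 rose and 2 did not pass. Their median difference was -0.89. CENPI, a subunit of the CENP-H/I/K/M group, had levels of 7.50, 7.16, 8.66 and 7.98 in treated cells, against 9.06, 9.35, 9.62 and 9.41 in DMSO. It was lower in every line without overlap between the groups, most in CAKI2 (-2.19) and least in A498 (-0.97). CENPI fell by 1.54 ± 0.50 (limma adjusted p = 0.000896), and its next brightest probe set had -1.25 ± 0.40. The other 2, both below the filter level, had -0.24 ± 0.55 and -0.66 ± 0.69, and the mean of all its probe sets was -0.92. CENPW, a histone-fold protein that pairs with CENP-T, had levels of 9.47, 10.27, 9.73 and 9.44 in treated cells, against 11.26, 11.87, 11.26 and 10.60 in DMSO. All treated values lay below all control values. CENPW fell by 1.52 ± 0.26 (limma adjusted p = 0.000267), most in ACHN (-1.79) and least in CAKI1 (-1.16).

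The partners of CENPI fell as well. CENPM had a difference of -1.09 ± 0.31, CENPH of -0.91 ± 0.21 and CENPK of -0.89 ± 0.23, each lower in 4 of 4 lines. CENPO, of the group that receives the mitotic kinase PLK1, fell by 0.53 ± 0.40 (limma adjusted p = 0.0471), with -0.02 in A498. Its call was lost in 8 of 13 alternatives that kept the block, among them those without ACHN, CAKI2 or CAKI1 (limma adjusted p up to 0.173).

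CENPN, which binds CENP-A nucleosomes directly, had levels of 10.75, 11.42, 10.68 and 10.75 in treated cells, against 11.62, 12.24, 11.50 and 11.37 in DMSO. The differences spanned a narrow range, -0.87 to -0.62, although treated CAKI2 overlapped with control CAKI1. CENPN fell by 0.78 ± 0.11 (limma adjusted p = 0.0013). Its next probe sets had -0.65 ± 0.16 and -0.28 ± 0.19, and the dimmest had 0.62 ± 0.72, the single further probe set of any member with the opposite sign. With the mean of all 4 the difference was -0.27 (limma adjusted p = 0.166).

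CENPQ and CENPL did not pass. CENPQ, a partner of CENPO, had levels of 8.38, 8.82, 7.66 and 7.96 in treated cells, against 8.99, 9.12, 8.02 and 7.84 in DMSO, with overlap. Its difference of -0.28 ± 0.30 (limma adjusted p = 0.257) was below 0 in 3 of 4 lines and 0.12 in CAKI1. CENPL, the partner of CENPN, had levels of 10.87, 10.77, 11.24 and 10.21 in treated cells, against 10.69, 10.58, 10.83 and 9.40 in DMSO. It was the one subunit of this layer with higher values in all 4 lines, most in CAKI1 (0.81). Its other probe set had 0.13 ± 0.30 and was lower in CAKI2 (-0.28). In the brightest probe set the difference of CENPL was 0.40 ± 0.30 (limma adjusted p = 0.0631). It was called higher with median centring (0.51, limma adjusted p = 0.0209), with the signals as deposited (limma adjusted p = 0.0457) and with a stricter filter (limma adjusted p = 0.0474), within a range of adjusted p-values up to 0.222 over the alternatives with the block.

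The outer KMN network held both the largest fall and the rise. Of its 8 genes 6 fell, 1 rose and 1 did not pass. SPC24, which with SPC25 anchors the NDC80 complex to the inner kinetochore, had levels of 5.97, 7.92, 7.56 and 7.57 in treated cells, against 8.50, 10.85, 9.51 and 9.11 in DMSO. All treated values lay below all control values, and the lowest, in ACHN, was below the filter level of 6.41. SPC24 fell by 2.24 ± 0.61 (limma adjusted p = 0.000349), or 4.72 times lower. Its other probe set, with means of 5.56 in treated cells and 5.84 in DMSO, lay below the filter level and had -0.28 ± 1.53, so that the mean of both was -1.26. SPC25 had levels of 8.24, 8.49, 8.59 and 8.51 in treated cells, against 10.22, 10.76, 10.24 and 9.78 in DMSO. The treated values were close together and all below the controls. SPC25 fell by 1.79 ± 0.43 (limma adjusted p = 0.00031), or 3.47 times lower, and its call was also made without the block.

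NDC80 and NUF2, the partners that carry the microtubule-binding end of the same complex, fell, with differences of -0.95 ± 0.14 and -0.89 ± 0.38, each in 4 of 4 lines without overlap between the groups. The mean difference of SPC24 and SPC25 was -2.26, -2.60, -1.81 and -1.41 over the lines, against -1.13, -0.95, -0.65 and -0.94 for NDC80 and NUF2. The SPC pair lay below the NDC80 and NUF2 pair in 4 of 4 lines, with a difference between the pairs of -1.10 ± 0.49. An exact sign-flip permutation test over the 4 lines gave a two-sided p = 0.125, the smallest it allows, and 0.167 after Benjamini-Hochberg adjustment over the 4 comparisons of partners made. These comparisons were chosen after the values were seen.

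MIS12, the scaffold that links the inner kinetochore to KNL1 and the NDC80 complex, was also chosen for description after its values were seen. It had levels of 11.97, 11.54, 12.50 and 10.87 in treated cells, against 11.02, 10.30, 10.89 and 9.57 in DMSO. It was higher in each line, least in ACHN (0.95) and most in A498 (1.62), although treated CAKI1 lay below control ACHN and A498. MIS12 rose by 1.28 ± 0.27 (limma adjusted p = 0.000383), or 2.42-fold. The call was made in every alternative with the block that could be run (limma adjusted p = 0.000183 to 0.00669). MIS12 rests on a single probe set, whose type can match several transcripts, so that it had no value where such probe sets were left out. CENPA, CENPH, CENPL, KNTC1, ZWINT and SKA1 likewise had only probe sets of such types and no value there.

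None of the other 3 subunits of the MIS12 complex was called higher. DSN1, whose phosphorylation by Aurora B favours binding of the complex to CENP-C, fell by 0.73 ± 0.25 (limma adjusted p = 0.0051). NSL1 had levels of 11.80, 11.73, 11.05 and 11.64 in treated cells, against 12.13, 12.18, 11.65 and 11.63 in DMSO, with overlap. It was lower in ACHN, CAKI2 and A498 and had 0.01 in CAKI1. Its difference of -0.34 ± 0.26 did not pass (limma adjusted p = 0.0705), and without CAKI1 it was -0.45 (limma adjusted p = 0.0381, in a range of 0.0381 to 0.37 over the alternatives with the block). The last subunit, PMF1, which is no member of the list, had 0.06 ± 0.22 (limma adjusted p = 0.819). MIS12 lay above the mean of DSN1 and NSL1 by 1.81 ± 0.31 in 4 of 4 lines (exact sign-flip permutation test, two-sided p = 0.125, adjusted p = 0.167). KNL1, formerly CASC5, the platform on which the BUB proteins assemble, fell by 1.10 ± 0.51, more in ACHN (-1.45) and CAKI2 (-1.63) than in A498 (-0.61) and CAKI1 (-0.72). Of its further probe sets, those at -1.18 ± 0.24 and -0.73 ± 0.39 were lower as well, and the dimmest had -0.04 ± 0.20.

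**Figure D2:**
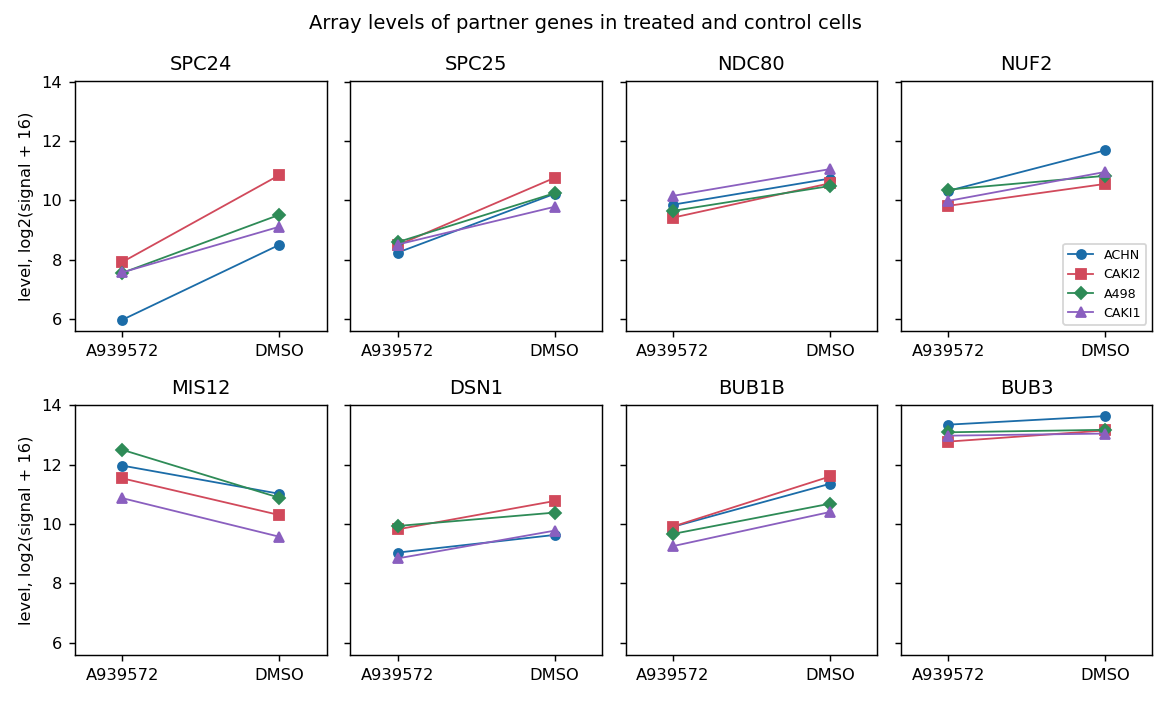
Level of 8 genes as log2(signal + 16) on the vertical axis, in A939572 at the left and DMSO at the right of each panel, with a line joining the 2 arrays of each cell line. The slopes of SPC24 and SPC25 are steeper than those of NDC80 and NUF2, MIS12 runs the other way from DSN1, and BUB3 is nearly level while BUB1B falls to 9.69 ± 0.31 in treated cells, against 11.01 ± 0.56 in DMSO (mean and SD of 4 arrays).

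Genes that start close to members on the other strand were listed, a search made after the value of MIS12 was seen. With both starts pointing away from each other and at most 1000 bases apart, 10 measured members had a neighbour that was tested. Both genes fell in 3 pairs, both rose in 1, they passed in opposite directions in 0, and the neighbour did not pass in 6. Of the 10 neighbours 3 were thus called lower and 1 higher, beside 15.9% and 14.7% of all genes tested, so that the count of neighbours called is near the background. The pair that rose was MIS12 and DERL2, a gene of endoplasmic reticulum associated degradation, whose start lay 196 bases away. DERL2 had levels of 12.87, 12.05, 12.90 and 11.95 in treated cells, against 11.89, 10.58, 11.82 and 11.21 in DMSO. It was higher in 4 of 4 lines, by 1.07 ± 0.31 (limma adjusted p = 0.000715). SKA2 lay 560 bases from PRR11, a cell cycle gene, which had levels of 12.04, 10.75, 11.90 and 12.35 in treated cells, against 13.31, 12.95, 12.72 and 13.07 in DMSO. PRR11 fell by 1.25 ± 0.68 (limma adjusted p = 0.00274), most in CAKI2. The other pairs that fell together were SKA3 with MRPL57, a gene of the mitochondrial ribosome (-0.55 ± 0.21), and CENPO with PTRHD1 (-0.55 ± 0.41). Beside the falls of NDC80, CENPK, NUF2 and CENPN, their neighbours METTL4 (0.41 ± 0.34), PPWD1 (0.10 ± 0.05), RGS5 (0.11 ± 0.82) and CMC2 (-0.27 ± 0.18) did not pass.

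**Figure D3:**
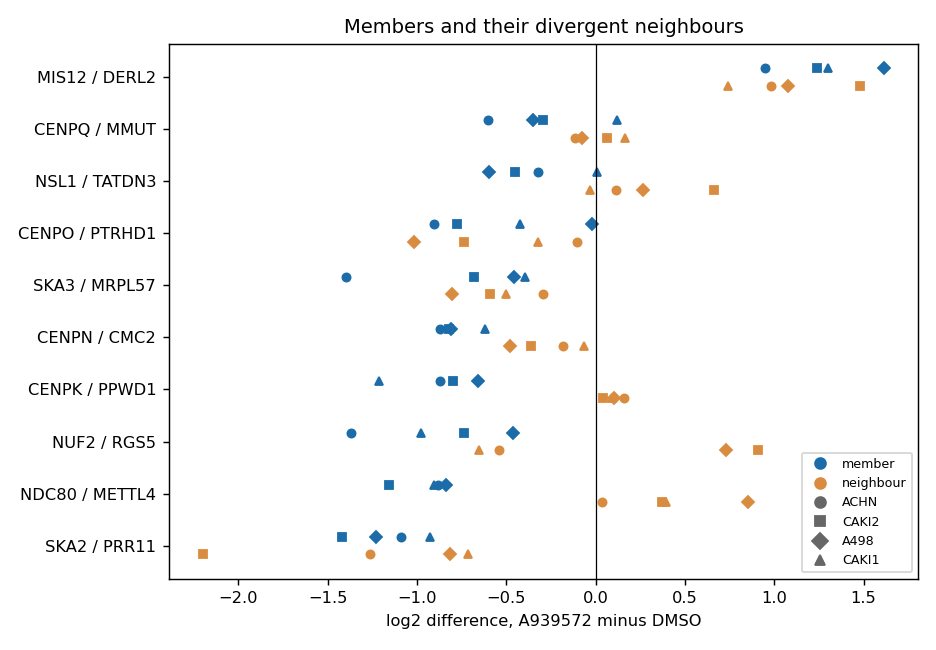
Log2 difference of 10 members (blue) and of the gene that starts on the opposite strand within 1000 bases (orange), 1 symbol per cell line, with a pair on each row. MIS12 and DERL2 are both to the right of 0 and SKA2 and PRR11 both to the left in all 4 lines, while the neighbours of NDC80 and CENPK lie at or to the right of 0.

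The RZZ complex recruits dynein and checkpoint proteins to kinetochores without attachment. ZWINT, which tethers it through KNL1, had levels of 11.78, 11.45, 11.85 and 11.91 in treated cells, against 13.66, 12.99, 12.86 and 12.83 in DMSO. All treated values lay below all control values, with ACHN lowest relative to its control (-1.89). ZWINT fell by 1.34 ± 0.46 (limma adjusted p = 0.000635), and its call was also made without the block. KNTC1, which encodes the ROD subunit, had levels of 10.11, 9.33, 9.45 and 9.24 in treated cells, against 10.65, 10.10, 9.67 and 10.17 in DMSO, with overlap. It fell by 0.62 ± 0.31 (limma adjusted p = 0.0141), with the smallest difference in A498 (-0.22). The call of KNTC1 was lost without CAKI2 (limma adjusted p = 0.0531) and without CAKI1 (limma adjusted p = 0.0592). ZWILCH, another subunit, had levels of 11.59, 11.37, 11.81 and 11.31 in treated cells, against 12.27, 11.68, 11.73 and 11.71 in DMSO. ACHN, CAKI2 and CAKI1 were lower, and A498 had 0.08. The mean of -0.33 ± 0.32 did not pass (limma adjusted p = 0.102), and without A498 it was -0.47 (limma adjusted p = 0.047, in a range of 0.047 to 0.354 over the alternatives with the block).

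CENPE and CENPF belong to the fibrous corona, the outermost layer of the kinetochore before microtubules attach. CENPE, a kinesin that carries chromosomes to the spindle equator, had levels of 9.70, 8.66, 10.76 and 9.24 in treated cells, against 10.78, 9.85, 10.92 and 10.02 in DMSO. The groups overlapped through A498, where both values were high and the difference was -0.16. CENPE fell by 0.80 ± 0.46 (limma adjusted p = 0.00939). CENPF, a large coiled-coil protein of late cell cycle cells, had levels of 11.51, 10.84, 12.05 and 11.44 in treated cells, against 12.68, 12.12, 12.36 and 12.11 in DMSO. Each line was lower, A498 again least (-0.31), without overlap between the groups. CENPF fell by 0.86 ± 0.45 (limma adjusted p = 0.0046), and its further probe sets had -1.16 ± 0.66 and -1.38 ± 0.83.

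Of the 4 checkpoint genes 2 fell and 2 did not pass. BUB1B, which encodes the checkpoint kinase-like protein BUBR1, had levels of 9.91, 9.92, 9.67 and 9.26 in treated cells, against 11.36, 11.60, 10.69 and 10.41 in DMSO. All treated values lay below all control values. BUB1B fell by 1.33 ± 0.30 (limma adjusted p = 0.000448), or 2.51 times lower. MAD2L1, which encodes MAD2, the protein that captures the activator CDC20, had levels of 11.50, 12.03, 12.07 and 10.98 in treated cells, against 12.82, 13.07, 12.54 and 11.96 in DMSO. Every line was lower, A498 least (-0.47), although treated CAKI2 and A498 lay above control CAKI1. MAD2L1 fell by 0.95 ± 0.35 (limma adjusted p = 0.00143), and its further probe sets had -1.09 ± 0.48 and -0.81 ± 0.30.

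BUB3 and MAD1L1 did not pass. BUB3, the adaptor that brings BUBR1 and BUB1 to KNL1, had levels of 13.35, 12.78, 13.09 and 12.98 in treated cells, against 13.64, 13.15, 13.17 and 13.05 in DMSO. The groups overlapped, and the difference was small but below 0 in 4 of 4 lines. It was -0.20 ± 0.15 (limma adjusted p = 0.147), and the other 5 probe sets had -0.12 to -0.60. MAD1L1, which encodes MAD1, the partner that converts MAD2 to its active form, had levels of 6.93, 6.86, 6.94 and 7.35 in treated cells, against 7.01, 6.65, 6.56 and 7.32 in DMSO. These levels were near the filter level, and the groups overlapped. The difference was 0.13 ± 0.21 (limma adjusted p = 0.71). The mean of MAD2L1 and BUB1B lay below that of BUB3 and MAD1L1 in 4 of 4 lines (difference -1.10 ± 0.17, exact sign-flip permutation test, two-sided p = 0.125, the smallest possible, adjusted p = 0.167).

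All 3 genes of the SKA complex, which helps the NDC80 complex hold on to shortening microtubules, fell. SKA2 had levels of 10.80, 9.39, 10.97 and 11.25 in treated cells, against 11.89, 10.82, 12.20 and 12.18 in DMSO. The lines differed in level, with CAKI2 lowest in both groups, and the differences lay between -1.42 and -0.93. SKA2 fell by 1.17 ± 0.21 (limma adjusted p = 0.000387), and its other probe set had -1.54 ± 0.11. SKA3 had levels of 8.39, 8.36, 9.17 and 8.34 in treated cells, against 9.79, 9.04, 9.63 and 8.73 in DMSO. All lines were lower, most in ACHN (-1.40), and treated A498 lay above control CAKI2 and CAKI1. SKA3 fell by 0.73 ± 0.46 (limma adjusted p = 0.0178), a call lost without ACHN (-0.51, limma adjusted p = 0.0683). SKA1 fell by 0.70 ± 0.43 (limma adjusted p = 0.0291), and its call was lost without ACHN, CAKI2 or A498 (differences -0.52, -0.67 and -0.80, limma adjusted p = 0.118, 0.0814 and 0.0561) and without the filter on dim genes (limma adjusted p = 0.0706). SKA2 had a larger fall than the mean of SKA1 and SKA3 in 3 of 4 lines (difference -0.45 ± 0.47, exact sign-flip permutation test, two-sided p = 0.25).

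The shugoshins protect centromeric cohesin until anaphase. SGO2, formerly SGOL2, had levels of 10.17, 9.77, 9.96 and 9.65 in treated cells, against 11.18, 10.84, 10.81 and 10.21 in DMSO. All treated values lay below all control values. SGO2 fell by 0.87 ± 0.23 (limma adjusted p = 0.00175), and its other probe set had -1.01 ± 0.29. SGO1, formerly SGOL1, had levels of 6.90, 6.82, 7.47 and 8.03 in treated cells, against 7.42, 7.80, 8.22 and 7.95 in DMSO. It was lower in 3 lines and had 0.09 in CAKI1. The mean of -0.54 ± 0.46 did not pass (limma adjusted p = 0.105). Its other probe set was lower in each line by a similar amount, -0.76 ± 0.10, and the mean of both was called lower (-0.65, limma adjusted p = 0.0208, in a range of 0.0208 to 0.305 over the alternatives with the block).

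Further probe sets were available for 14 members, 28 in all. Of these, 27 had the same sign as the brightest probe set and 1, the dim one of CENPN, the opposite sign. The 21 whose mean was at or above the filter level all had the same sign.

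**Figure D4:**
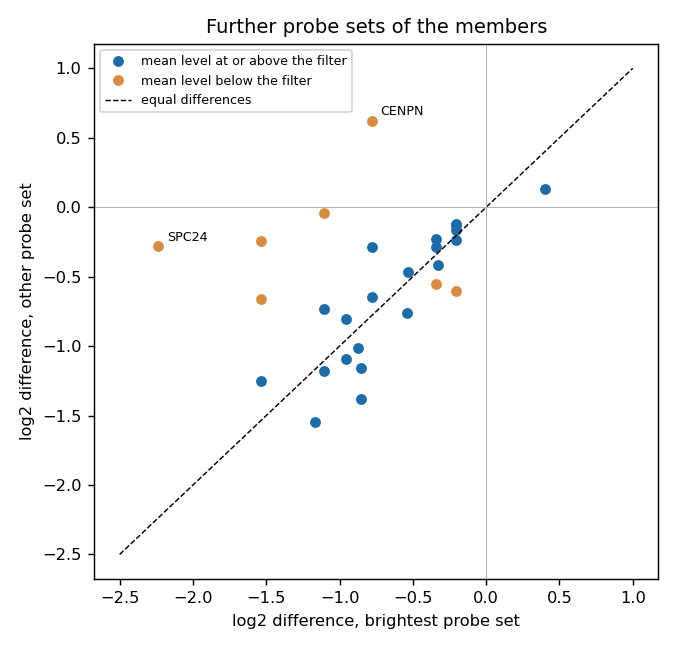
Log2 difference of the 28 further probe sets of the members on the vertical axis against that of the brightest probe set of the same gene on the horizontal axis, with those below the filter level in orange. The 21 brighter ones have the sign of the brightest probe set, and the dim ones of SPC24 and CENPN lie away from it.

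The lines differed in how far the members fell. Within a line 1 array stands against 1, so these values have no test. At least 1.5-fold lower values were seen for 26 of 33 members in ACHN (19.1% of all genes tested), 26 in CAKI2 (17.2%), 16 in A498 (17.2%) and 20 in CAKI1 (16.7%). At least 1.5-fold higher were 1 in ACHN (18.6% of all genes tested), 1 in CAKI2 (15.4%), 1 in A498 (16.1%) and 2 in CAKI1 (13.2%). ACHN had a member median of -1.01, CAKI2 of -0.96, CAKI1 of -0.77 and A498 of -0.47, while that of all genes tested was between -0.04 and -0.01. The most positive difference of the 4 lines was in A498 for 18 members and in CAKI1 for 14, and the most negative was in ACHN for 15 and in CAKI2 for 14. The log2 difference of the ACTB ratio had the same order of lines, with 0.98 in ACHN, 0.64 in CAKI2, 0.51 in CAKI1 and 0.42 in A498, and its part in the spread between lines was not tested. The members whose differences ranged most over the lines were SPC24 (1.39), CENPI (1.22) and CENPA (1.21), and that with the smallest range was CENPN (0.25).

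**Figure D5:**
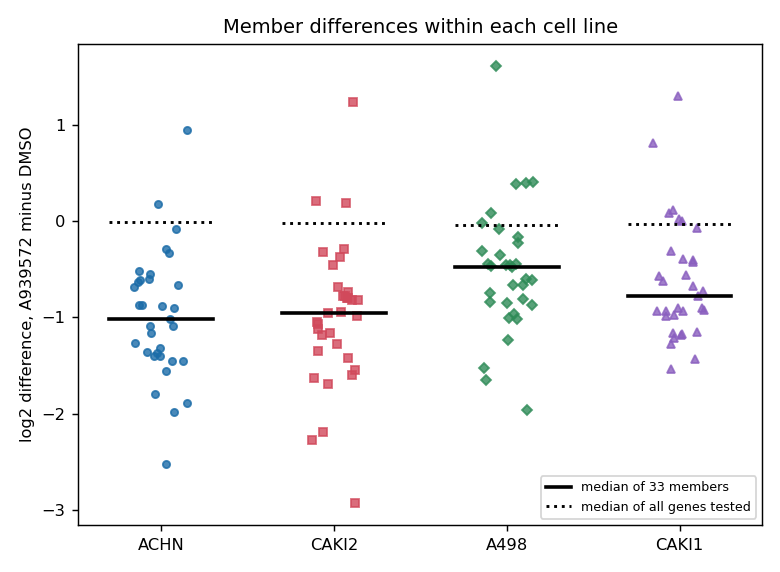
Log2 difference of the 33 members within each cell line, 1 symbol per gene, with a solid bar for their median and a dotted bar for the median of all genes tested. The solid bars lie at -1.01, -0.96, -0.47 and -0.77, all below the dotted bars near 0, and single genes above 0 occur in every line.

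Other genes of the same structures were read from lists drawn up with earlier results of these data known. Of 19 further centromere, kinetochore and checkpoint genes that were tested, out of 22 named, 9 fell and 2 rose, with a median of -0.45. Among all genes tested 15.9% fell and 14.7% rose, so that the count that rose is not above the background. CENPU, the partner of CENPQ, had a difference of -1.58 ± 0.35, and OIP5, which licenses CENP-A loading, one of -1.35 ± 0.26. NDEL1, a dynein regulator, rose by 1.07 ± 0.36. The other gene that rose, named after its value was seen, was BOD1 (0.72 ± 0.17), which is needed for chromosome biorientation. Of the chromosomal passenger complex, which corrects wrong attachments, 3 of 4 fell, beside the same 15.9% of all genes tested. The differences were -1.32 ± 0.39 in BIRC5, -1.01 ± 0.46 in AURKB and -0.98 ± 0.68 in CDCA8.

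The anaphase promoting complex is the enzyme that the checkpoint restrains. Of its 15 tested genes 3 fell and 0 rose, with a median of -0.16, where 15.9% of all genes tested fell and 14.7% rose, so that the count that fell is near the background. Its activator CDC20 had a difference of -0.69 ± 0.38, and the subunits ANAPC15 and ANAPC11 had -0.77 ± 0.30 and -0.55 ± 0.17. Of 14 genes of cohesin and its release, 5 fell and 3 rose, with a median of -0.36. The separase inhibitor PTTG1 had a difference of -1.03 ± 0.32, the cohesin protector CDCA5 one of -0.77 ± 0.35 and the core subunit SMC1A one of -0.74 ± 0.22. The 3 that rose, named after their values were seen, were the acetyltransferase ESCO1 (0.66 ± 0.19), the releasing factor WAPL (0.53 ± 0.37) and the subunit STAG1 (0.52 ± 0.16). The same background of 15.9% and 14.7% holds for the cohesin genes and for the regulators. With lists this short, the counts that rose, 3 of 14 and 2 of 8, are near it. Of 8 regulators of late cell cycle genes, 4 fell and 2 rose. The activators MYBL2 and FOXM1 had differences of -1.21 ± 0.48 and -0.92 ± 0.34, while LIN37 rose by 1.22 ± 0.45. The other regulator that rose, named after its value was seen, was LIN52 (0.51 ± 0.31). The other 2 that fell, also named after their values were seen, were LIN9 (-0.64 ± 0.42) and RBBP4 (-0.55 ± 0.26). LIN54 (0.26 ± 0.64) and E2F4 (-0.19 ± 0.23) did not pass. Among the LIN genes, LIN9 thus fell, LIN37 and LIN52 rose and LIN54 did not pass.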

How the data were processed

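In the deposited files each probe set has 1 linear intensity. Labelled cRNA was hybridised, per the labels' protocols, while the summary program is not given in the sources used here. Each array had evidently been scaled by the authors before deposit, since its mean after trimming 2% at each end lay between 500.067 and 500.073. Of 54675 probe sets, 62 controls were left out, 41091 had 1 gene symbol, 1801 had more than 1 and 11721 had none. Symbols of 41037 were matched by Entrez ID to a GRCh38.p14 table.

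Values were transformed as log2(signal + 16), which understates changes of dim genes. Array medians then ran from 6.40 to 6.64, a spread above the limit of 0.1, so that arrays were quantile normalized. A gene was tested if its brightest probe set averaged at least 6.41, the median level. The test was limma (version 3.58.1, R 4.3.3; lmFit, then eBayes with trend), 2-sided, with the line as a block. The number of arrays limits precision, with a median SE of 0.17. The pairing comes from the line named in the labels, and arrays of a line deviated together from their group means (correlation across genes 0.818 to 0.864, at most -0.03 between lines). The low values between lines follow in part from subtracting the group means, so that they are no independent support for the pairing. The fit was tested on simulated data.

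Values in every array were given for the 2 members of each role with the largest change, for members that did not pass and for those whose probe sets differed in sign. From each other list up to 3 genes past the threshold were named by rule, and further genes were added after the values were seen. The members and lists were chosen with earlier results of these data known. Of the 33 brightest probe sets 12 were of types that can match several transcripts. Alternatives changed the normalization, offset, filter, probe sets, block, trend and lines.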

Additional observations from a re-analysis of the deposited data

Results flagged for a closer look

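Members were examined for single arrays far from the other 3 of their group and for single lines whose difference stood far from the others, 99 groups of 4 values in all, of which chance flags about 1 in 20. In 5 of them a value stood apart. Treated CAKI2 was high for CENPN (11.42), treated CAKI1 for MAD1L1 (7.35), and treated A498 for SKA1 (8.39) and SKA3 (9.17), and control ACHN was high for ZWILCH (12.27). CENPA had a difference of 0.40 in A498, opposite to the other lines, which had -0.81 to -0.57, and this contrast between lines was not tested, since each line has 1 array per treatment.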

How the results depend on the processing

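Without the replicate block 67 genes were called in all, 2 members lower and 0 higher, and 1 gene of the other lists, against 3706, 24, 1 and 31 with it. With the block, members called lower numbered 20 to 24 in the other settings that used all lines and 21 to 25 with a line left out. Members called higher numbered 2 with median centring, with the signals as deposited and with the filter at the upper quartile, and 0 with probe sets of one transcript only, where 26 members were tested and 20 genes of the other lists were called. With a line left out 1 member was called higher each time, 2664 to 3088 genes in all and 24 to 31 of the other lists. Over all genes, median centring called 2163 higher and 1544 lower (58.3% higher), against 1778 and 1928 (48.0% higher) as described. No member changed sign in any alternative run. Of 449 member values tested under alternatives, 403 kept their side of the threshold, 39 lost and 7 gained a call. The second brightest probe set of 14 members was not tested, and it differed by more than the SD over lines in 3, CENPN (-0.65), SPC24 (-0.28) and SKA2 (-1.54). The 39 losses were 23 without the block and 16 in CENPO, SKA1, KNTC1, SKA3 and CENPN. The cause was not tested.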
